A study of Mus musculus with 9 samples.

Results

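Krt8, Krt18, Krt7, Krt19, Sox9, Spp1 and Cd24a, 4 keratin genes and 3 genes used as markers of bile duct cells and liver progenitors, were followed across 9 RNA libraries of primary mouse hepatocytes. They were chosen by name, as the keratins of hepatocytes and bile ducts with ductal or progenitor markers, and all 7 were among the 54532 genes measured. They formed 3 groups of 3 libraries each, all from mice of the C57BL/6 strain. CKO Tu were cells of COX-2fl/fl/Alb-Cre+ mice given 6 μmol/L tunicamycin for 24 hours. WT Tu were cells of littermates of the same age without the Cre transgene, COX-2fl/fl/Alb-Cre-, given the same treatment. WT DMSO were cells of those littermates given vehicle for 24 hours. Both genotypes thus carried the floxed COX-2 (Ptgs2) alleles, and the Cre was driven by the albumin promoter, which is active in hepatocytes. All cells were first kept in 1% serum for 2 hours. Knockout cells without tunicamycin were not analysed here, so CKO Tu against WT DMSO differs in genotype and in treatment. Neither the age of the mice nor whether the 3 libraries of a group came from separate animals is given in the sources used here, so the p-values speak of the spread among libraries only. Tunicamycin blocks protein N-glycosylation so that unfolded proteins build up in the endoplasmic reticulum (ER).

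Keratins form the intermediate filaments of epithelial cells, and each filament pairs a type II with a type I keratin. Adult hepatocytes make a single such pair, keratin 8 (type II) with keratin 18 (type I), which protects them from mechanical and toxic stress and which accumulates in the Mallory-Denk bodies of some liver diseases. Bile duct cells add keratin 7 and keratin 19, and express the transcription factor SOX9, the secreted glycoprotein osteopontin (Spp1) and the surface glycoprotein CD24. Hepatocytes that take on duct-like features after injury are known to express SOX9 and osteopontin, a state in which Notch and YAP signalling take part.

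Levels were in FPKM, fragments per kilobase of each gene's length relative to a size assigned to the library, so genes could be compared with each other. The 9 libraries held between 14897358 and 16001484 assigned fragments. The size behind FPKM was 0.948 to 0.984 times that total in WT Tu libraries, 1.00 to 1.01 times in CKO Tu libraries and 1.06 to 1.07 times in WT DMSO libraries. WT Tu replicate 1 had 6.87% of its fragments in mitochondrial genes, the highest of the 9. The stress marker Hspa5, the ER chaperone BiP, averaged 4862 ± 153 FPKM in CKO Tu, 5312 ± 395 FPKM in WT Tu and 576 ± 14.4 FPKM in WT DMSO (SD, n = 3 each). Ptgs2, the targeted gene, had 1, 1 and 2 fragments in CKO Tu libraries, 8, 5 and 5 in WT Tu libraries and 0, 13 and 8 in WT DMSO libraries, so it was near the limit of detection in every group. The labels describe male mice, but Xist, transcribed from the inactive X chromosome of females, had at most 3 fragments in a CKO Tu library, against 20659 to 33657 in the 6 WT libraries. Uty, Kdm5d, Eif2s3y and Ddx3y, 4 genes of the Y chromosome, together had 3486 to 3633 fragments per CKO Tu library and 0 in every WT library. Sex-linked expression and genotype therefore cannot be told apart in any comparison of CKO Tu below.

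The promoters of the keratin pair and of Spp1 are shown because Krt8 and Krt18 were lower together in both tunicamycin groups while Spp1 followed another pattern. Sequences are from RefSeq on GRCm38.p6, where 4 of the 7 members (Krt8, Krt18, Krt7 and Spp1) had an entry, and run from 150 bases before to 10 bases after the RefSeq start, 5′ to 3′ on the gene's strand. Capitals mark every match found in the printed stretch to TATAA (the core of the TATA box), CCAAT (the CCAAT box) or TGGGAA (a core bound by RBPJ), on either strand. Krt8 is at chr15:102004333-102004492 on the minus strand, Krt18 at chr15:102028066-102028225 on the plus strand and Spp1 at chr5:104434961-104435120 on the plus strand. The start in the expression table's coordinates differed from the RefSeq start. It lay 140 bases upstream for Krt8 and 36 bases upstream for Krt18, so that most of the Krt8 stretch is inside the gene by those coordinates, and 7 bases downstream for Spp1.
Krt8: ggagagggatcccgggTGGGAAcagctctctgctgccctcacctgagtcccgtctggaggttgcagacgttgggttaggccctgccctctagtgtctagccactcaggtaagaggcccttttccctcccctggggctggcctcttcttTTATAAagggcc
Krt18: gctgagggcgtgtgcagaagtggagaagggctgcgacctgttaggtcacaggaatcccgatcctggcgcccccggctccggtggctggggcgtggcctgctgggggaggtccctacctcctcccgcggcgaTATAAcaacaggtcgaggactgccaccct
Spp1: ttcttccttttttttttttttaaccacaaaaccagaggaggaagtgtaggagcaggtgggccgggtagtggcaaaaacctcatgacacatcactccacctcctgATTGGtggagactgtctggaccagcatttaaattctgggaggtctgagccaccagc

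Counting the base before the RefSeq start as -1, TATAA lay at -19 to -15 in Krt18 and at -1 to 4 in Krt8, where it overlapped a match on the other strand at -2 to 3. TGGGAA lay at -134 to -129 in Krt8, and CCAAT lay on the minus strand at -46 to -42 in Spp1. The whole window of 300 bases also held TATAA at -211 to -207 in Spp1, and the SOX core ACAAAG on the other strand at -203 to -198 in Krt18 and at -168 to -163 in Spp1. TATAA was found in 24.9% of 32817 mouse promoter windows of that length, CCAAT in 37.4%, TGGGAA in 25.6% and ACAAAG in 18.7%. The AP-1 core TGANTCA (7.81% of windows), the TEAD core GGAATG (14.7%), the ATF4 and CHOP composite TGATGNAA (3.97%) and the ER stress response element (0.119%) were searched on both strands and had no match in these windows. A match describes letters, not a bound site.

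Krt8 and Krt18 were far above the other members in every library. Krt8 (ENSMUSG00000049382, mm10 chromosome 15, 101996698 to 102004482, minus strand) was at 2423, 2559 and 2113 FPKM in CKO Tu libraries, 2234, 2870 and 2688 FPKM in WT Tu libraries and 3055, 3281 and 3477 FPKM in WT DMSO libraries. Every tunicamycin library, of either genotype, lay below every vehicle library, and the tunicamycin groups overlapped. Krt18 (ENSMUSG00000023043, chromosome 15, 102028180 to 102032027, plus strand) was at 2346, 2502 and 2099 FPKM in CKO Tu, 1829, 2408 and 2313 FPKM in WT Tu and 2722, 3076 and 3252 FPKM in WT DMSO libraries. The same order held, with no overlap between tunicamycin and vehicle and an overlap between the genotypes. The genes lie 23697 bases apart. By mean FPKM, Krt8 ranked 17 among all genes in CKO Tu, 15 in WT Tu and 9 in WT DMSO, and Krt18 ranked 18, 19 and 12 in those groups. The pair took up 0.818%, 0.865% and 0.723% of all fragments in CKO Tu libraries, 0.664%, 0.893% and 0.837% in WT Tu libraries and 1.059%, 1.147% and 1.213% in WT DMSO libraries.

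**Figure D1:**
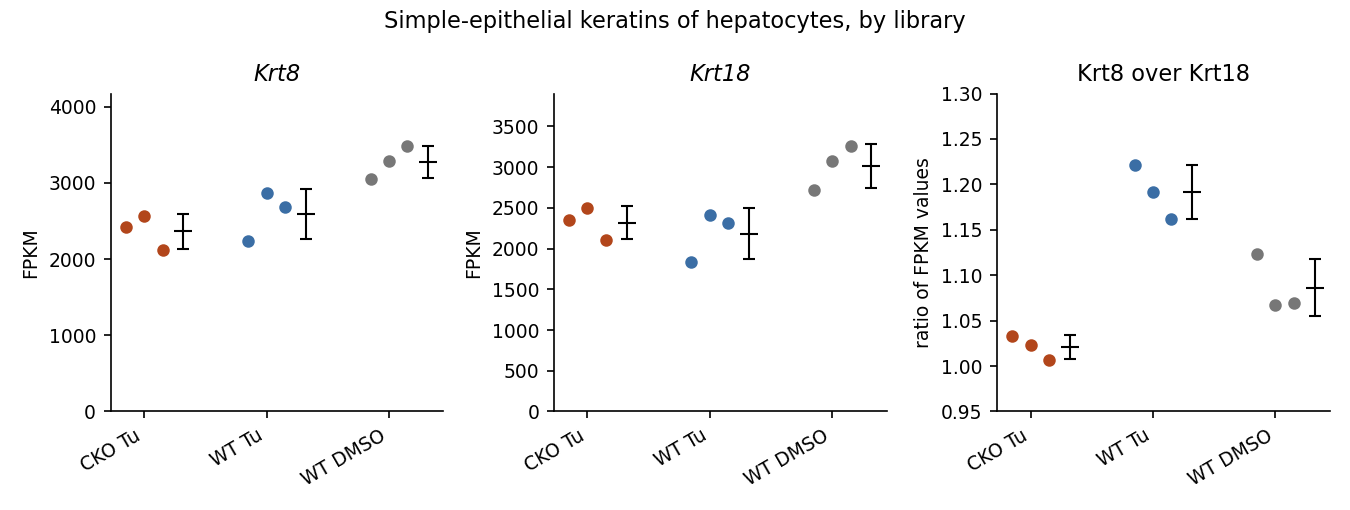
FPKM of Krt8 and Krt18 and the ratio of their FPKM values (vertical axes; the ratio axis starts at 0.95) in the 3 libraries of CKO Tu, WT Tu and WT DMSO; points are libraries in replicate order, and the bar beside them is the mean ± SD. All tunicamycin libraries lie below all vehicle libraries for both genes, and the ratio lies between 1.007 and 1.033 in CKO Tu, between 1.162 and 1.221 in WT Tu and between 1.067 and 1.123 in WT DMSO.

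In wild-type cells, tunicamycin lowered both keratins of the hepatocyte pair. Krt8 averaged 2597 ± 328 FPKM in WT Tu and 3271 ± 211 FPKM in WT DMSO (SD, n = 3 each), a log2 change of -0.34 ± 0.11 (SE; limma adjusted p = 0.042). Krt18 averaged 2183 ± 310 FPKM in WT Tu and 3017 ± 270 FPKM in WT DMSO (SD, n = 3 each), a log2 change of -0.47 ± 0.12 (SE; limma adjusted p = 0.015). Here and below, log2 changes are differences on the log2(FPKM + 1) scale from limma with all 9 libraries, and p-values were adjusted over the 11858 genes that reached an FPKM of 1 in 3 or more libraries. A gene was called at an adjusted p below 0.05. Of the 4 members that passed that filter, 0 were called higher and 2 lower in WT Tu, while 17.7% of all genes tested were called higher and 15.9% lower. At an unadjusted p below 0.05, limma had 0 members higher and 3 lower, and voom on recovered fragments called 0 higher and 3 lower at its adjusted p. For 2 of the 4 members, Krt8 and Krt18, the libraries of WT Tu and WT DMSO did not overlap, as was so for 46.7% of all genes tested. The split of calls over all genes moved with the scaling. As reported 2099 were higher and 1882 lower in WT Tu, while 1739 and 2375 were so with upper-quartile scaling, 1430 and 3108 with scaling to total fragments and 1497 and 3375 with voom. Krt8 and Krt18 were called lower under all 3.

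The calls of the keratin pair in wild-type cells depended on single libraries. Without WT Tu replicate 1, the library with the highest mitochondrial share and the lowest Krt8 and Krt18 of its group, the log2 change of Krt8 was -0.23 (limma adjusted p = 0.082). Without WT DMSO replicate 3, the limma adjusted p was 0.13 for Krt8 and 0.06 for Krt18. The call of Krt8 was also lost without WT DMSO replicate 1 or 2 (limma adjusted p = 0.05 and 0.097), WT Tu replicate 3 (limma adjusted p = 0.063) or CKO Tu replicate 1 (limma adjusted p = 0.06), while that of Krt18 was kept. With a trend on GC content removed, Krt8 was at -0.19 (limma adjusted p = 0.14).

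Both keratins were also lower in tunicamycin-treated knockout cells than in vehicle-treated wild-type cells, a comparison that spans genotype and treatment. Krt8 averaged 2365 ± 229 FPKM in CKO Tu, against 3271 ± 211 FPKM in WT DMSO (SD, n = 3 each), a log2 change of -0.47 ± 0.11 (SE; limma adjusted p = 0.0065). Krt18 averaged 2316 ± 203 FPKM in CKO Tu, against 3017 ± 270 FPKM in WT DMSO (SD, n = 3 each), a log2 change of -0.38 ± 0.12 (SE; limma adjusted p = 0.026). Krt18 lost its call here without CKO Tu replicate 1 or 3 (limma adjusted p = 0.059 and 0.09) and without WT DMSO replicate 2 or 3 (limma adjusted p = 0.071 and 0.091). Between CKO Tu and WT Tu, Krt8 differed by -0.13 on the log2 scale (95% interval -0.38 to 0.12; limma adjusted p = 0.38) and Krt18 by 0.09 (95% interval -0.18 to 0.36; limma adjusted p = 0.58), and the libraries overlapped for both. The intervals allow a difference in either direction between the genotypes.

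Relative to each other, the paired keratins differed among the groups. The ratio of Krt8 to Krt18 FPKM was 1.033, 1.023 and 1.007 in CKO Tu libraries, 1.221, 1.192 and 1.162 in WT Tu libraries and 1.123, 1.067 and 1.069 in WT DMSO libraries. No library of one group overlapped those of another, and the order was WT Tu highest, WT DMSO between and CKO Tu lowest. Among single genes tested, 46.7% did not overlap between WT Tu and WT DMSO, and 51.2% between CKO Tu and WT Tu. Between CKO Tu and WT DMSO that share was 63%. The mean ratio was 1.021 ± 0.0132 in CKO Tu, 1.192 ± 0.0295 in WT Tu and 1.086 ± 0.0316 in WT DMSO (SD, n = 3 each). The ratio was looked at after its values had been seen, so it is given as a description with no test. Ratios of other gene pairs were not computed. A Krt8 pseudogene, Krt8-ps, held between 0.162% and 0.233% as many fragments as Krt8. The antisense gene Gm36026, which shares 271 bases with Krt8, had 236 fragments over all libraries, against 752194 for Krt8. The sources used here do not give the strand setting of the counting, so reads of such neighbours could be assigned to either gene, in these small numbers.

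Among the ductal markers, Spp1 and Sox9 were expressed at a moderate level, and both were higher in CKO Tu than in WT Tu. Spp1 (ENSMUSG00000029304, chromosome 5, 104435118 to 104441050, plus strand), which encodes osteopontin, a ligand of integrins and CD44, was at 29.0, 26.6 and 25.9 FPKM in CKO Tu libraries, 19.02, 15.9 and 15.2 FPKM in WT Tu libraries and 15.5, 14.7 and 15.7 FPKM in WT DMSO libraries. Every CKO Tu library was above every wild-type library, and WT Tu overlapped WT DMSO. The CKO Tu mean of 27.2 ± 1.63 FPKM was 1.63 times that of 16.7 ± 2.04 FPKM in WT Tu (SD, n = 3 each), a log2 change of 0.68 ± 0.09 (SE; limma adjusted p = 0.00042). It was 1.78 times the 15.3 ± 0.571 FPKM of WT DMSO (SD, n = 3), a log2 change of 0.79 ± 0.09 (SE; limma adjusted p = 8.3e-05). Between WT Tu and WT DMSO, Spp1 differed by 0.11 (95% interval -0.08 to 0.31; limma adjusted p = 0.34). Its change between CKO Tu and WT Tu stayed between 0.61 and 0.77 on the log2 scale, with an adjusted p of at most 0.0028, under all 22 alternatives run. It was called under all of them except the rule that asks for a log2 change of at least 1.

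Sox9 (ENSMUSG00000000567, chromosome 11, 112782224 to 112787760, plus strand), the transcription factor that marks bile duct cells and their precursors, was at 8.25, 8.96 and 7.55 FPKM in CKO Tu libraries, 4.03, 6.28 and 6.40 FPKM in WT Tu libraries and 6.14, 8.70 and 8.36 FPKM in WT DMSO libraries. CKO Tu lay wholly above WT Tu and overlapped WT DMSO, and WT Tu overlapped WT DMSO. The CKO Tu mean of 8.25 ± 0.701 FPKM was 1.48 times that of 5.57 ± 1.34 FPKM in WT Tu (SD, n = 3 each), a log2 change of 0.51 ± 0.17 (SE; limma adjusted p = 0.039). WT Tu replicate 1 was the lowest of the 9 libraries, and without it the change was 0.33 (limma adjusted p = 0.077). The call was also lost without any 1 of the CKO Tu libraries, with adjusted p = 0.093, 0.11 and 0.059 from limma without replicate 1, 2 and 3, and without WT DMSO replicate 3 (limma adjusted p = 0.052).

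Relative to WT DMSO, Sox9 did not pass the test in either tunicamycin group. It averaged 5.57 ± 1.34 FPKM in WT Tu and 7.74 ± 1.39 FPKM in WT DMSO (SD, n = 3 each), a log2 change of -0.42 (95% interval -0.80 to -0.04; limma adjusted p = 0.085). That value passed with a weight per library and with a replicate block (limma adjusted p = 0.04 in both), when FPKM were scaled to total fragments (adjusted p = 0.037), with voom (adjusted p = 0.013) and without WT DMSO replicate 1 (adjusted p = 0.04). In CKO Tu, Sox9 differed from WT DMSO by 0.09 (95% interval -0.29 to 0.47; limma adjusted p = 0.68).

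Counted over the members, 2 of the 4 tested were called higher in CKO Tu than in WT Tu and 0 lower, where 18.7% of all genes tested were called higher and 19.6% lower. The count of 0 was also 0 in limma at an unadjusted p below 0.05 and with voom. The libraries of 2 of the 4 did not overlap, as was so for 51.2% of all genes tested. Over all genes, 2213 were higher and 2325 lower in CKO Tu than in WT Tu, and 2821 and 1979 with voom. In CKO Tu against WT DMSO, 1 member was called higher and 2 lower, where 25.3% of all genes tested were called higher and 24.2% lower. The libraries did not overlap for those 3 members, as was so for 63% of all genes tested. The WT Tu and WT DMSO libraries enter more than 1 of these comparisons, so the comparisons are not independent of each other.

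**Figure D2:**
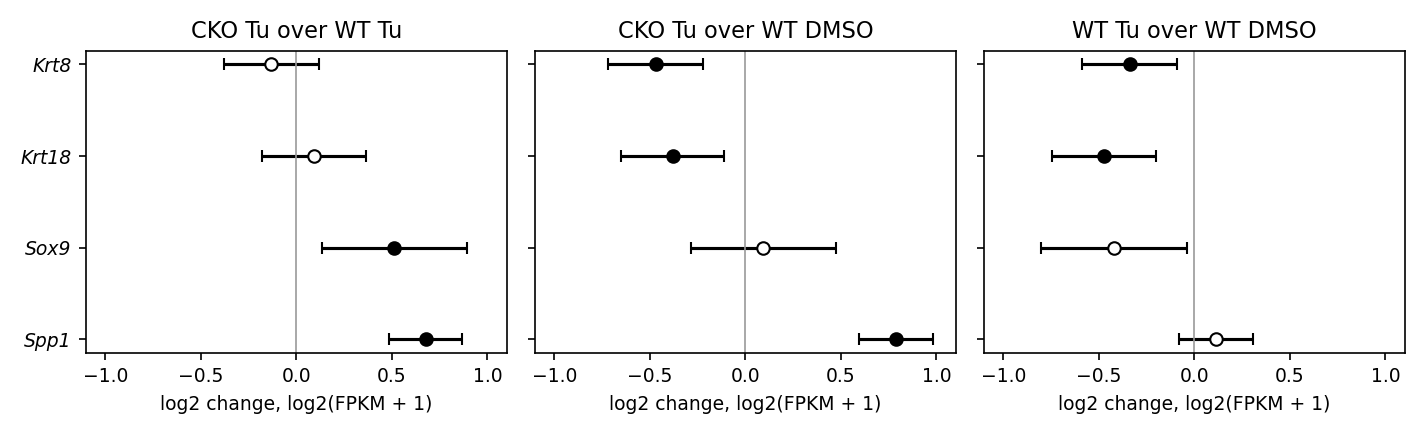
Log2 change on the log2(FPKM + 1) scale (horizontal axis) of the 4 members tested with limma, in 3 comparisons; bars are 95% intervals and filled points have an adjusted p below 0.05. Krt8 and Krt18 lie below 0 in both comparisons with WT DMSO, and Spp1 lies at 0.68 in CKO Tu over WT Tu and at 0.79 in CKO Tu over WT DMSO.

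Krt19, Cd24a and Krt7 were near the limit of detection and did not pass the filter, so they were compared by fragments and by an exact two-sided permutation test on FPKM, which cannot go below p = 0.1 with 3 libraries against 3. Intervals of ratios below are 95% exact binomial intervals of the summed fragments and cover counting error only. Krt19 (ENSMUSG00000020911, chromosome 11, 100140810 to 100148665, minus strand), the type I keratin of bile ducts, had 15, 16 and 11 fragments in CKO Tu libraries, 14, 10 and 15 in WT Tu libraries and 21, 18 and 21 in WT DMSO libraries. Its mean was 0.487 ± 0.0874 FPKM in CKO Tu, 0.474 ± 0.114 FPKM in WT Tu and 0.672 ± 0.0723 FPKM in WT DMSO (SD, n = 3 each). Both tunicamycin groups lay below all vehicle libraries, as Krt8 and Krt18 did, with a ratio of 0.727 in CKO Tu over WT DMSO (0.478 to 1.1; exact permutation p = 0.1) and of 0.7 in WT Tu over WT DMSO (0.456 to 1.07; exact permutation p = 0.1). Both counting intervals include 1, so a difference was not detectable at this depth, and CKO Tu over WT Tu was 1.04 (0.655 to 1.65; exact permutation p = 0.8).

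Cd24a (ENSMUSG00000047139, chromosome 10, 43578284 to 43584265, plus strand), a surface glycoprotein of progenitor and duct cells, had 12, 8 and 6 fragments in CKO Tu libraries, 3, 7 and 3 in WT Tu libraries and 2, 11 and 6 in WT DMSO libraries. The 3 groups overlapped. CKO Tu over WT Tu was 1.93 (0.956 to 4.09; exact permutation p = 0.2), which was not detectable as a difference at this depth. Krt7 (ENSMUSG00000023039, chromosome 15, 101411043 to 101430313, plus strand), the type II keratin of bile ducts, had 2, 0 and 1 fragments in CKO Tu libraries, 0, 0 and 4 in WT Tu libraries and 1, 1 and 9 in WT DMSO libraries. A count of 0 allows up to 3 fragments in a library, so no order of the groups can be read from Krt7. Gm671, on the other strand, shares 1269 bases with Krt7 and had 3 fragments over all libraries, against 18 for Krt7.

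**Figure D3:**
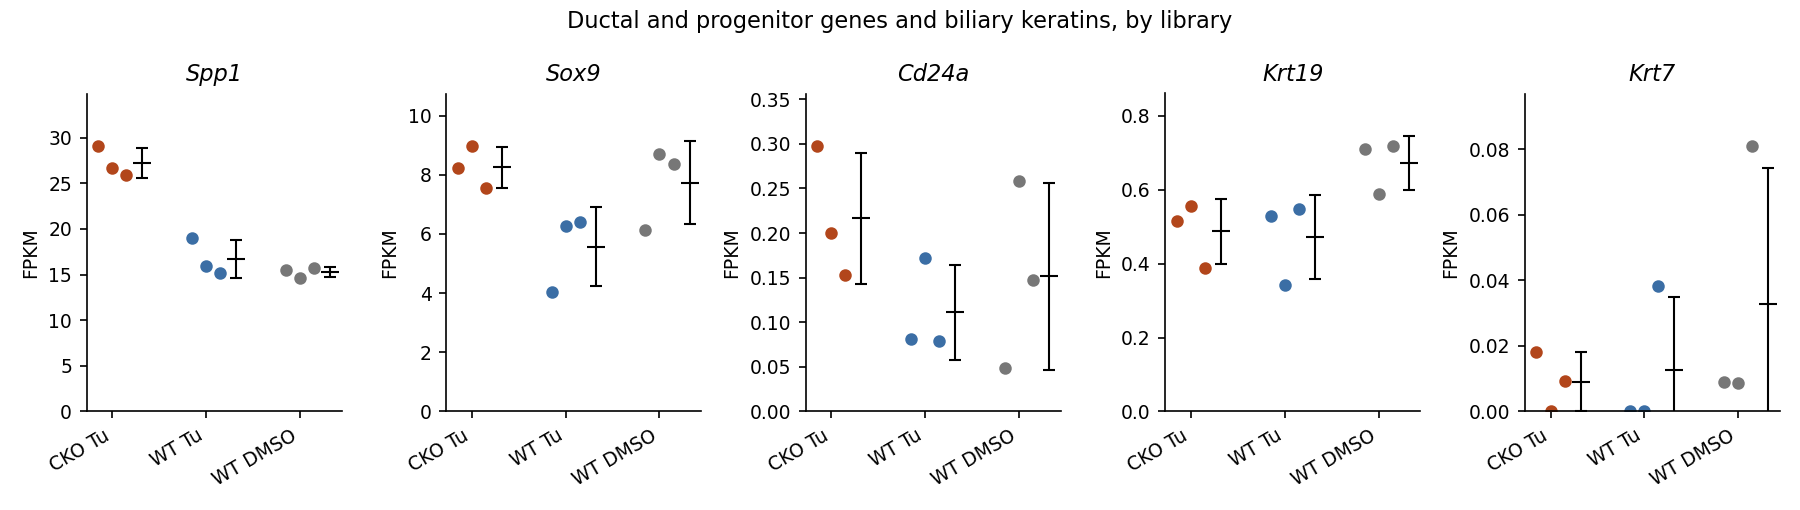
FPKM (vertical axes, each with its own scale) of Spp1, Sox9, Cd24a, Krt19 and Krt7 in the 3 libraries of CKO Tu, WT Tu and WT DMSO; points are libraries in replicate order and bars are the mean ± SD, cut at 0 for Krt7. Spp1 separates CKO Tu, between 25.9 and 29.0 FPKM, from all wild-type libraries, while Krt19, Cd24a and Krt7 stay below 1 FPKM in every library.

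In order of level, the means ran Krt8, Krt18, Spp1, Sox9, Krt19, Cd24a and Krt7 in each of the 3 groups. Krt8 and Krt18 overlapped between libraries of the same group in CKO Tu, WT Tu and WT DMSO, so their order rests on the ratio within a library, which was above 1 in all 9. The biliary keratins were thus at most 0.717 FPKM (Krt19 in WT DMSO replicate 3), while the hepatocyte pair was at 1829 FPKM or more. Bulk RNA cannot tell fewer cells of a type from less RNA per cell, for these and all other markers.

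The other markers of bile duct cells were mostly as low as Krt7 and Krt19. Of 25 further cholangiocyte and ductal genes, 5 passed the filter, and Tspan8, Dmbt1 and Mmp7 had 0 fragments in all 9 libraries. Their summed level was 23.0 to 27.4 FPKM in CKO Tu, 20.6 to 22.7 FPKM in WT Tu and 32.4 to 43.2 FPKM in WT DMSO, most of it from Cldn4 and Slc4a2. Of the 5 tested, 1 was called higher, 1 lower and 3 did not pass in CKO Tu against WT Tu. That is near the share over all genes tested, of which 18.7% were called higher and 19.6% lower. In WT Tu against WT DMSO 0 of the 5 were called higher (1 at an unadjusted p below 0.05 in limma, 0 with voom), 2 lower and 3 did not pass. Over all genes tested, 17.7% were higher and 15.9% lower there. CKO Tu against WT DMSO had 1 of the 5 higher, 2 lower and 2 that did not pass, beside 25.3% higher and 24.2% lower over all genes tested.

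The genes of that list that changed between CKO Tu and WT Tu moved in opposite directions. Prom1, the surface protein CD133 of progenitors and duct cells, was at 0.0267, 0.0629 and 0.0549 FPKM in CKO Tu libraries, 3.90, 3.39 and 3.15 FPKM in WT Tu libraries and 2.97, 3.04 and 2.79 FPKM in WT DMSO libraries. It was nearly absent from the knockout libraries, with 16 fragments in CKO Tu against 1115 in WT Tu and 1015 in WT DMSO, and the log2 change between CKO Tu and WT Tu was -2.09 ± 0.09 (SE; limma adjusted p = 9.1e-07), on a scale that understates the change of low genes. Slc10a2, the bile acid uptake transporter of duct and gut cells, was at 5.11, 4.23 and 4.43 FPKM in CKO Tu, 0.982, 0.734 and 0.734 FPKM in WT Tu and 0.499, 0.395 and 0.595 FPKM in WT DMSO libraries. All CKO Tu libraries were above all wild-type libraries (log2 change 1.62 ± 0.10 (SE) over WT Tu; limma adjusted p = 1.2e-05). Cldn4, a tight junction claudin of ducts, averaged 7.74 ± 2.70 FPKM in CKO Tu, 6.09 ± 1.89 FPKM in WT Tu and 21.3 ± 5.52 FPKM in WT DMSO (SD, n = 3 each). It fell in WT Tu relative to WT DMSO by 1.65 ± 0.28 on the log2 scale (SE; limma adjusted p = 0.0024), and between CKO Tu and WT Tu it differed by 0.29 (limma adjusted p = 0.45).

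**Figure D4:**
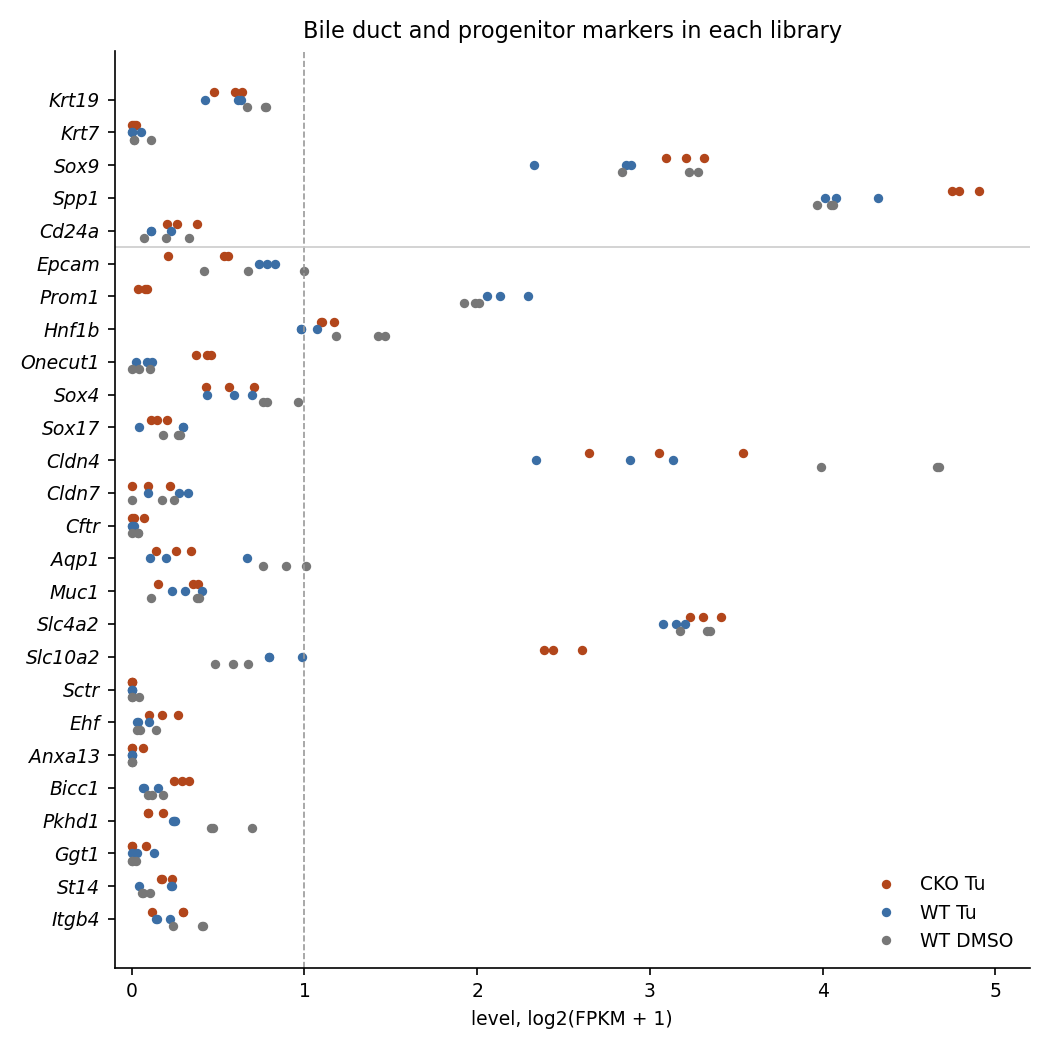
Level as log2(FPKM + 1) (horizontal axis) of the 5 members used as duct or progenitor markers (above the grey line) and the 21 further markers with a fragment in any library, 1 point per library, coloured for CKO Tu, WT Tu and WT DMSO; the dashed line marks an FPKM of 1. Most markers lie left of the dashed line in all 9 libraries, and Prom1 and Slc10a2 separate CKO Tu from all wild-type libraries, in opposite directions. Spp1 and, left of the dashed line, Onecut1 and Bicc1 also lie higher in CKO Tu than in all wild-type libraries, and Pkhd1 lies lower.

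Markers of most other liver cells were low, and some of their sums differed between the groups. The 10 endothelial markers summed to 3.49 to 4.04 FPKM in CKO Tu, 4.77 to 5.90 FPKM in WT Tu and 11.2 to 11.8 FPKM in WT DMSO libraries, lowest in the tunicamycin groups as the keratin pair was, with 4 of 4 tested lower in each tunicamycin group than in WT DMSO. Of all genes tested, 15.9% were called lower in WT Tu and 24.2% in CKO Tu, each against WT DMSO. The 10 stellate cell markers summed to 6.56 to 7.41 FPKM in CKO Tu, 5.14 to 5.98 FPKM in WT Tu and 5.5 to 6.8 FPKM in WT DMSO, a sum in which Reln had 2095 fragments in CKO Tu, 129 in WT Tu and 150 in WT DMSO. The 10 lymphocyte and neutrophil markers summed to 3.03 to 4.58 FPKM in CKO Tu, 4.88 to 6.52 FPKM in WT Tu and 1.45 to 1.80 FPKM in WT DMSO. Most of that sum's difference came from Camp, with 117 fragments in CKO Tu, 176 in WT Tu and 27 in WT DMSO, while Ptprc, the pan-leukocyte CD45, had 7, 12 and 22 fragments in those groups. The 10 Kupffer cell and macrophage markers summed to 92.7 to 107 FPKM in CKO Tu, 96.9 to 115 FPKM in WT Tu and 75.3 to 93.0 FPKM in WT DMSO, nearly all from Cd68, a lysosomal protein that is not limited to macrophages. Macrophages can also make osteopontin. Of these 10 markers, 6 (Adgre1, Clec4f, Marco, Timd4, Vsig4 and Cd5l) had 0 fragments in the CKO Tu libraries, 3 had 0 in WT Tu and 1 had 0 in WT DMSO. Mpeg1 had 48 fragments in CKO Tu, 45 in WT Tu and 125 in WT DMSO, Csf1r had 28, 24 and 70, and Lyz2 had 10, 9 and 94 in those groups. The part of other cell types in the changes of Krt8, Krt18, Sox9 and Spp1 was not tested.

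Hepatocyte markers were high in every group, and most single markers, though not their sum, were higher in CKO Tu than in WT Tu, as Spp1 and Sox9 were. The 12 markers summed to 14200 to 15200 FPKM in CKO Tu, 16000 to 17500 FPKM in WT Tu and 16200 to 17900 FPKM in WT DMSO, most of it from Alb. Between CKO Tu and WT Tu, 9 of the 12 were called higher, 2 lower and 1 did not pass, with a median log2 change of 0.75 beside -0.002 over all genes tested. Of all genes tested, 18.7% were called higher in that comparison and 19.6% lower. Hnf4a, a master transcription factor of hepatocytes, averaged 19.8 ± 1.25 FPKM in CKO Tu and 6.44 ± 0.779 FPKM in WT Tu (SD, n = 3 each; log2 change 1.49 ± 0.09 (SE), limma adjusted p = 1e-05). Tat, a tyrosine-degrading enzyme, rose by 2.42 ± 0.15 (SE; limma adjusted p = 7.8e-06). Between WT Tu and WT DMSO, 1 of the 12 was higher, 4 lower and 7 did not pass, beside 17.7% higher and 15.9% lower over all genes tested. Between CKO Tu and WT DMSO 7 were higher, 2 lower and 3 did not pass, beside 25.3% higher and 24.2% lower over all genes tested.

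Genes of keratin linkers and desmosomes were more often called lower than higher in WT Tu against WT DMSO. In CKO Tu against WT Tu they were more often called higher than lower. Of 12 linker and desmosome genes, 10 were tested. In WT Tu against WT DMSO, 1 was higher, 6 lower and 3 did not pass, with a median log2 change of -0.31 beside -0.002 over all genes tested. Of all genes tested, 17.7% were called higher and 15.9% lower, a split that moved with the scaling. Eppk1 (epiplakin), a plakin that binds keratin bundles, averaged 0.619 ± 0.107 FPKM in WT Tu, against 2.30 ± 0.194 FPKM in WT DMSO (SD, n = 3 each; log2 change -1.03 ± 0.10 (SE), limma adjusted p = 7.5e-05). Plec, the plectin that ties keratins to other structures, fell by 0.65 ± 0.10 (SE; limma adjusted p = 0.001), and Ppl, periplakin, by 0.58 ± 0.09 (SE; limma adjusted p = 0.0017).

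In CKO Tu against WT Tu, 5 of the 10 were higher, 2 lower and 3 did not pass, with a median log2 change of 0.20. Of all genes tested, 18.7% were called higher there and 19.6% lower. The desmosomal cadherins, which anchor keratin filaments at cell contacts through desmoplakin, were among the genes that rose. Dsc2 had 16.5, 17.2 and 16.2 FPKM in CKO Tu libraries, against 7.70, 6.27 and 7.02 FPKM in WT Tu libraries (log2 change 1.14 ± 0.08 (SE), limma adjusted p = 1.4e-05). Dsg2 had 19.7, 19.5 and 19.8 FPKM in CKO Tu libraries, against 10.9, 10.9 and 11.0 FPKM in WT Tu libraries (log2 change 0.79 ± 0.05 (SE), limma adjusted p = 6.3e-06). Neither overlapped between CKO Tu and WT Tu, as was so for 51.2% of all genes tested, whereas the keratin pair itself overlapped. Against WT DMSO, CKO Tu had 3 of the 10 higher, 4 lower and 3 that did not pass. Of all genes tested, 25.3% were called higher in that comparison and 24.2% lower.

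The 7 components of Mallory-Denk bodies, the keratin aggregates of injured hepatocytes, were all tested and moved in both directions. In WT Tu against WT DMSO, 3 were higher, 2 lower and 2 did not pass, and the same counts held for CKO Tu against WT Tu and for CKO Tu against WT DMSO. In that order of comparisons, 17.7%, 18.7% and 25.3% of all genes tested were called higher and 15.9%, 19.6% and 24.2% lower. Hspb1, the small heat shock protein HSP27, averaged 70.4 ± 4.90 FPKM in CKO Tu, 38.0 ± 5.90 FPKM in WT Tu and 68.9 ± 2.02 FPKM in WT DMSO (SD, n = 3 each). It was thus lower in WT Tu than in WT DMSO (log2 change -0.85 ± 0.11 (SE), limma adjusted p = 0.0004) and higher in CKO Tu than in WT Tu (0.88 ± 0.11 (SE), limma adjusted p = 0.00033). Sqstm1, the autophagy receptor p62, averaged 1536 ± 16.4 FPKM in CKO Tu and 2452 ± 63.1 FPKM in WT Tu (SD, n = 3 each; log2 change -0.67 ± 0.05 (SE), limma adjusted p = 2.1e-05).

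Notch and YAP are known to act upstream of SOX9 in duct formation. Of 14 Notch pathway genes, 6 were tested. In CKO Tu against WT Tu 0 were higher (0 at an unadjusted p below 0.05 in limma and 0 with voom), 3 lower and 3 did not pass, with a median log2 change of -0.13. Over all genes tested, 18.7% were higher and 19.6% lower in that comparison. Rbpj, the DNA-binding partner of Notch, was lower by 0.37 ± 0.09 (SE; limma adjusted p = 0.012). Its mean was 3.53 FPKM in CKO Tu, 4.86 FPKM in WT Tu and 3.35 FPKM in WT DMSO. It was called higher in WT Tu than in WT DMSO (log2 change 0.42, limma adjusted p = 0.0068). Between CKO Tu and WT DMSO it differed by 0.06 (limma adjusted p = 0.63). The target Hes1 and the ligand Jag1 were called at -0.45 and -0.25 (limma adjusted p = 0.042 and 0.031) but lost the call when any 1 of the CKO Tu libraries was left out. In WT Tu against WT DMSO, 1 was higher, 4 lower and 1 did not pass, beside 17.7% higher and 15.9% lower over all genes tested. In CKO Tu against WT DMSO 4 were lower, 0 higher (0 at an unadjusted p below 0.05 in limma) and 2 did not pass. Over all genes tested, 25.3% were higher and 24.2% lower in CKO Tu against WT DMSO.

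Of 8 YAP target genes, 7 were tested. In WT Tu against WT DMSO 0 were higher, 6 lower and 1 did not pass, with a median log2 change of -1.76, and in CKO Tu against WT Tu 0 were higher, 5 lower and 2 did not pass, with a median of -0.36. Between CKO Tu and WT DMSO 6 were lower, 0 higher and 1 did not pass. These counts of 0 were 0 in limma at an unadjusted p below 0.05 and with voom. Of all genes tested, 17.7% were called higher and 15.9% lower in WT Tu against WT DMSO. The shares were 18.7% and 19.6% in CKO Tu against WT Tu, and 25.3% and 24.2% in CKO Tu against WT DMSO. Cyr61, a matrix-associated signalling protein, averaged 32.2 ± 0.418 FPKM in CKO Tu, 62.9 ± 5.33 FPKM in WT Tu and 263 ± 11.1 FPKM in WT DMSO (SD, n = 3 each), a log2 change of -0.94 ± 0.07 (SE) between CKO Tu and WT Tu (limma adjusted p = 1.9e-05).

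The receptors of osteopontin and CD24 include integrins, CD44 and Siglec-G. Of 12 such genes 5 were tested, and in CKO Tu against WT Tu 0 were higher (0 at an unadjusted p below 0.05 in limma and 0 with voom), 1 lower and 4 did not pass. The 1 was Itgav, the integrin αv chain, at 10.04 ± 0.687 FPKM in CKO Tu, 14.0 ± 0.387 FPKM in WT Tu and 20.2 ± 1.42 FPKM in WT DMSO (SD, n = 3 each; log2 change -0.44 ± 0.07 (SE) between CKO Tu and WT Tu, limma adjusted p = 0.0013). In WT Tu against WT DMSO 0 were higher, 3 lower and 2 did not pass, and in CKO Tu against WT DMSO 1 was higher, 3 lower and 1 did not pass. Over all genes tested, 18.7% were higher and 19.6% lower in CKO Tu against WT Tu. The shares were 17.7% and 15.9% in WT Tu against WT DMSO, and 25.3% and 24.2% in CKO Tu against WT DMSO. Of 10 fetal liver and injury markers, 3 were tested. Of these, 1 was called lower in CKO Tu against WT Tu, beside the 19.6% of all genes tested. Afp, the fetal albumin relative, fell to 0.635 ± 0.148 FPKM in CKO Tu, against 1.43 ± 0.214 FPKM in WT Tu (SD, n = 3 each; log2 change -0.57 ± 0.12 (SE), limma adjusted p = 0.0056). Afp was also lower in CKO Tu than in WT DMSO (log2 change -0.67 ± 0.12 (SE), limma adjusted p = 0.0016). It was low in CKO Tu libraries, at 27, 31 and 41 fragments. The other two did not pass in any comparison, and Tnfrsf12a, the TWEAK receptor that expands ductal progenitors, was at 271 ± 11.3 FPKM in CKO Tu, 327 ± 93.8 FPKM in WT Tu and 350 ± 39.3 FPKM in WT DMSO (SD, n = 3 each).

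Likeness over the 9 libraries was taken as the root mean square difference of log2(FPKM + 1), each gene centred on its own mean, among 6296 other genes with a mean FPKM of at least 5. For Krt8 the nearest were Por (0.0563), Mars (0.0627) and Dbnl (0.0649), and for Krt18 Tgm2 (0.0558), Stx4a (0.0574) and Vcl (0.0628), beside an own spread of 0.231 and 0.244. Tgm2, the transglutaminase that cross-links keratins in Mallory-Denk bodies, was at 135, 136 and 105 FPKM in CKO Tu libraries, 100, 139 and 128 FPKM in WT Tu libraries and 148, 173 and 177 FPKM in WT DMSO libraries. It thus had the low WT Tu replicate 1 and CKO Tu replicate 3 that Krt18 had. For Sox9 the nearest were Fxyd1 (0.0736), Sf3a2 (0.0896) and Khk (0.0976), beside an own spread of 0.296. For Spp1 they were Paip2 (0.0697), Arl5a (0.0699) and Adprm (0.0719), beside an own spread of 0.36. Between members, the difference was 0.0957 for Krt8 and Krt18, 0.228 for Krt18 and Sox9, 0.306 for Krt8 and Sox9, 0.398 for Sox9 and Spp1, 0.516 for Krt18 and Spp1 and 0.551 for Krt8 and Spp1. The libraries share their depth and scaling across all genes, so these values describe likeness only.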

How the data were processed

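RNA from 9 libraries of mouse hepatocytes was analysed from 1 table of FPKM for 54532 genes that the authors deposited. The submitters' processing notes name HISAT2 2.2.1, featureCounts 1.5.0-p3 and the build mm10. The sources used here do not give the scaling of FPKM, the annotation or whether counting used strand. Coordinates in the table were those of GENCODE M21 for 98.1% of genes and all 7 members. FPKM times gene length were whole multiples of 1 step per library for 100% of values, which gave fragments per gene and library. The margin allowed was 0.01 fragments, and for the most abundant genes it was wider, in proportion to their count.

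Values were fitted as log2(FPKM + 1) with limma 3.58.1 in R 4.3.3, with a mean per group over all 9 libraries and an intensity trend. Genes had to reach an FPKM of 1 in 3 or more libraries. Tests were two-sided, with Benjamini-Hochberg adjustment over 11858 genes and a threshold of 0.05. The pseudocount of 1 makes changes of low genes smaller. Genes under the filter were compared by exact permutation tests and by recovered fragments, whose intervals cover counting error only, since duplicates could not be told from separate molecules. The steps were tested on simulated data.

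The members, gene lists and tests were chosen with earlier results of these data known. Named genes were the members, at most 4 tested genes per list and comparison with the largest change, 3 genes per tested member with the most alike pattern, and checks of the labels. The lists were linkers and desmosome, Mallory-Denk body components, cholangiocyte and ductal markers, fetal liver and injury markers, Notch pathway, YAP targets, receptors of osteopontin and CD24, other keratins, and markers of hepatocytes, endothelial, Kupffer, stellate and immune cells. Genes named outside that rule were chosen after their values were seen.

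Alternatives were a pseudocount of 0.1, no filter, a filter at FPKM of 5, upper-quartile, quantile and total-fragment scaling, voom on recovered fragments, a replicate block, a fit to only the 2 groups compared, a weight per library, no intensity trend, a log2 change of at least 1, and each library left out. A fit without the lowess trend of values on GC content (span 0.3) was added after seeing the data.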

Additional observations from a re-analysis of the deposited data

How the results depend on the processing

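In WT Tu against WT DMSO, 2 members were called lower. Of these, 0 were called with no filter on low values and 0 when a log2 change of at least 1 was asked for. In a fit to only the 2 groups compared 1 was called, as was 1 with the GC trend removed. Leaving out 1 library gave between 0 and 2. Over all genes, 1504 of 28630 were called lower there with no filter and 99 of 11858 with the rule on a log2 change. The fit to 2 groups had 1430 of 11311 genes lower, and the fit without the GC trend 1748 of 11848. In CKO Tu against WT Tu, 2 members were called higher. Of these, 1 was called with no filter, 0 with the rule on a log2 change of at least 1, and 1 to 2 without 1 library. Over all genes, 2047 of 28630 were called higher there with no filter and 266 of 11858 with that rule. In CKO Tu against WT DMSO the rule on a log2 change of at least 1 left 0 members higher, where 1 was called, and 0 lower, where 2 were called. There 0 were lower with no filter, and 1 to 2 without 1 library. Over all genes in that comparison, the rule on a log2 change left 522 of 11858 higher and 335 lower. With no filter, 2901 of 28630 genes were lower. Without the filter more genes enter the adjustment and the spread of low genes enters the trend. Krt8 and Krt18 kept their direction relative to WT DMSO in both tunicamycin groups, and Spp1 and Sox9 in CKO Tu against WT Tu, under all 22 alternatives. Among the other genes named, Hspa5 in CKO Tu against WT Tu was at -0.13 (limma adjusted p = 0.17) and came to 0.27 with quantile normalization (limma adjusted p = 0.0029); the cause was not tested. Scaling to total fragments shifted the median of all genes by -0.11 on the log2 scale in WT Tu against WT DMSO, and voom shifted it by -0.14. Same-numbered libraries did not deviate together (correlations between -0.097 and 0.021), so the replicate numbers were not taken as pairs. With the replicate block, 1981 genes were higher and 1715 lower in WT Tu against WT DMSO, 2062 and 2186 in CKO Tu against WT Tu, and 2911 and 2772 in CKO Tu against WT DMSO. Among the members the block changed 1 call, that of Sox9 in WT Tu against WT DMSO (log2 change -0.42, limma adjusted p = 0.04). Depth limits Krt7, Krt19 and Cd24a, with at most 21 fragments in a library.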

Other observations

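Most other keratins were almost silent in these hepatocytes. Of 49 further keratin genes in the table, 33 had 0 fragments in all 9 libraries and 2, Krt5 and Krt10, passed the filter. Krt5, the type II keratin of basal epithelial cells, was at 1.80, 1.15 and 1.85 FPKM in CKO Tu libraries, 4.54, 5.84 and 4.56 FPKM in WT Tu libraries and 8.02, 6.27 and 6.81 FPKM in WT DMSO libraries. Every CKO Tu library lay below every wild-type library, and WT Tu lay below WT DMSO. Between CKO Tu and WT Tu it fell by 1.21 ± 0.14 on the log2 scale (SE; limma adjusted p = 0.00027), a call that no alternative ended. Its change of -0.43 between WT Tu and WT DMSO (limma adjusted p = 0.043) was lost without WT Tu replicate 1 (limma adjusted p = 0.11) and with the replicate block (limma adjusted p = 0.07). Krt10 did not pass in any comparison.

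Krt17, a type I keratin of basal and stressed epithelium that was chosen after its values were seen, had 11 fragments in CKO Tu, 48 in WT Tu and 80 in WT DMSO. Its level in CKO Tu was 0.221 times that in WT Tu (95% exact binomial interval 0.103 to 0.431, counting error only; exact permutation p = 0.1, the smallest possible). The libraries of CKO Tu and WT Tu did not overlap. The summed level of the 49 further keratins was 3.62 to 4.0 FPKM in CKO Tu, 7.18 to 9.61 FPKM in WT Tu and 10.3 to 12.3 FPKM in WT DMSO libraries.

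Onecut1, a transcription factor that precedes duct formation, and Epcam, an adhesion protein of duct cells, were under the filter and were also chosen after their values were seen. Onecut1 had 65 fragments in CKO Tu, 10 in WT Tu and 7 in WT DMSO. Epcam had 34 fragments in CKO Tu, 66 in WT Tu and 63 in WT DMSO, and its level in CKO Tu was 0.497 times that in WT Tu (95% exact binomial interval 0.318 to 0.762, counting error only; exact permutation p = 0.1, the smallest possible).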
